A study of Mus musculus with 6 samples.

Results

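Angiopoietins and their receptors form a signalling system of blood and lymphatic vessels, and 7 of its genes were followed here in endothelial cells sorted from mouse LN. They were the ligand genes Angpt1 and Angpt2, the receptor genes Tek and Tie1, the receptor phosphatase gene Ptprb, and Angptl2 and Angptl4, which encode angiopoietin-like secreted proteins. The genes were taken by name, as every probe set that the platform annotation assigns to 1 of them alone. 6 of the 7 genes had such a probe set, and together they held 11 of the 45037 probe sets that are not controls, against 18193 genes with a probe set of their own on the array. Angptl2 was not analysed here.

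The cells came from pooled skin-draining and mesenteric LN of 6-week-old C57BL/6 mice, after depletion of CD45+ cells, and were sorted by gp38 and CD31. There were 6 arrays, 3 from cells whose genotype label reads double positive (gp38 and CD31) and 3 from cells whose label reads CD31 +. The same labels call the double-positive samples BEC and the CD31+ samples LEC, whereas the gates of the study put LEC in the gp38+ CD31+ population. Groups were therefore named by the gate, and differences are given as double positive minus CD31+, from group means on the log2 scale. Naming the groups by the cell type word would turn each sign and change no size. The called marker genes followed the gate word: of 13 lymphatic markers 9 were called higher and 0 lower in the double-positive arrays, and of 13 blood endothelial markers 0 and 6. Over all genes 1.06% were called higher and 0.225% lower. Not all markers separated the groups. Prox1 of the lymphatic list averaged 7.50 in the double-positive and 7.43 in the CD31+ arrays, and Kdr of the blood list 6.88 and 6.23, both with overlap. Pdpn, which encodes gp38, averaged 7.64 in the double-positive and 3.58 in the CD31+ arrays, Lyve1 11.1 and 5.76, and Flt1, a VEGF receptor of blood endothelium, 3.50 and 8.02. The probe set of Pecam1, which encodes the CD31 of the gate, was close to the lowest value the arrays give, at 2.41 and 2.48.

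Angiopoietin-1, made chiefly by the cells that surround vessels, activates the endothelial receptor TIE2, the product of Tek, and keeps vessels quiet and tight. Angiopoietin-2 is made by endothelial cells themselves and can oppose or mimic angiopoietin-1, depending on the context. TIE1 has no firmly established ligand of its own among the angiopoietins and modulates TIE2, while the phosphatase VE-PTP, the product of Ptprb, removes phosphate from TIE2. Angiopoietin-2 and both receptors are needed for the growth of lymphatic vessels. ANGPTL4 does not bind TIE2 and is best known as an inhibitor of lipoprotein lipase.

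Both receptor genes lie on the same chromosome, and the stretch around their annotated starts is printed below because these are the regulatory sequences of the pathway that the RefSeq promoter table (GRCm38.p6) holds for measured genes. It had entries for 3 of the 7 genes, Tek, Tie1 and Angptl2. Each window runs from 250 bases before to 50 bases after the start, at chr4:94739039-94739338 on the plus strand for Tek and at chr4:118489800-118490099 on the minus strand for Tie1. Capitals mark matches on either strand to AGGAA, the core bound by ETS factors, and to AGATAA, the core bound by GATA factors.

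Tek: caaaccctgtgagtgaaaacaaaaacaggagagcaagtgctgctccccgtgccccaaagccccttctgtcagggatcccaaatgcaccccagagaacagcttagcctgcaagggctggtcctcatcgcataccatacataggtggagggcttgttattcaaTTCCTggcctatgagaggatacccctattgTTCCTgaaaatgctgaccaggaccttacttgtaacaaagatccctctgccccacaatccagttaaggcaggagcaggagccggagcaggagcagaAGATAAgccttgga

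Tie1: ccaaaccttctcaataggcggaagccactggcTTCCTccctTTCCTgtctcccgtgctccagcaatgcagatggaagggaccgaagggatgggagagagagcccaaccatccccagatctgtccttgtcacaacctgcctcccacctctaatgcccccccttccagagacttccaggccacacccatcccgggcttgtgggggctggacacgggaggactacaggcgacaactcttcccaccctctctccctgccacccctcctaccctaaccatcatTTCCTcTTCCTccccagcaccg

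The ETS core occurred 2 times in the Tek window, starting at -89 and -59 from the start, and 4 times in the Tie1 window, at -218, -209, 28 and 34, with every match on the reverse strand of the letters shown. It is a common word, found in 66.7% of 32851 promoter windows of 300 bases. The GATA core occurred 1 time, in Tek at 36, and 11.2% of all windows hold it. The forkhead core TGTTTAC was searched for as well and had no match in either window, while 3.6% of all windows hold it. These matches describe letters and were not tested for use in the cells.

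Tek and Ptprb were read at clear levels in both groups, Angpt2 and Angptl4 lay higher in the double-positive arrays, and Angpt1 and Tie1 were dim throughout. The values are GCRMA log2 abundances with a floor of 2.39, and 37.4% of the 45037 probe sets were never more than 0.1 above it. A fold change that involves values near the floor is understated. In a bulk sample of sorted cells, fewer cells of a type and less RNA per cell cannot be told apart.

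**Figure D1:**
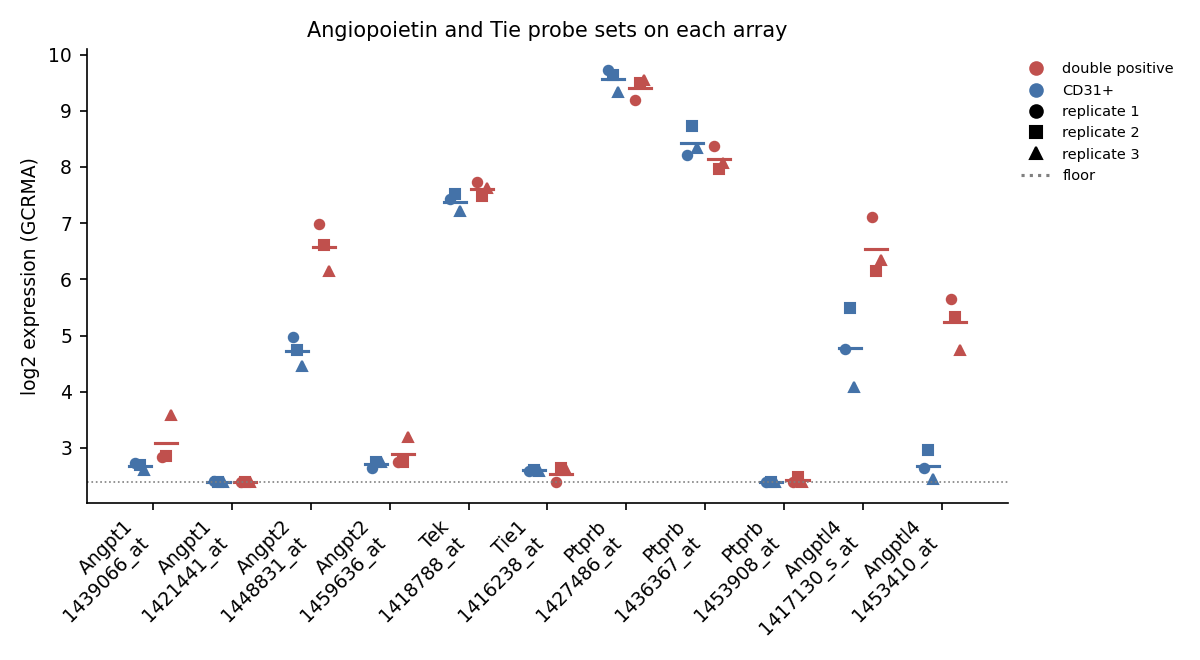
Log2 expression (GCRMA, vertical axis) of the 11 probe sets of the angiopoietin and Tie genes by array (6 in all). Each point is 1 array, with shapes for replicate numbers, bars are means of 3 arrays and the dotted line is the floor. The double-positive points lie above the CD31+ points at the brighter probe sets of Angpt1 and Angpt2 and at both probe sets of Angptl4, and they overlap for Tek, Tie1 and Ptprb.

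Of the ligands, Angpt2 had log2 values of 6.98, 6.61 and 6.15 on double-positive arrays 1 to 3 and of 4.98, 4.75 and 4.46 on the CD31+ arrays of the same numbers. Every double-positive array was above every CD31+ array. The means were 6.58 ± 0.414 and 4.73 ± 0.262 (SD, n = 3 each), a difference of 1.85 with a 95% interval of 1.12 to 2.58, or 3.61-fold. Over all probe sets this did not pass the test (limma SE 0.271, adjusted p = 0.105). When the test was limited to probe sets that reached a log2 value of 5 on 3 or more arrays, Angpt2 passed as higher (limma test, adjusted p = 0.00298), and it had entered that filter through the double-positive arrays alone. Its other probe set was dim, at 2.74 to 3.20 in the double-positive and 2.64 to 2.75 in the CD31+ arrays, and differed by 0.19.

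Angpt1 was close to the floor in both groups. Its brighter probe set read 2.84, 2.85 and 3.58 on the double-positive arrays and 2.74, 2.69 and 2.60 on the CD31+ arrays. Every double-positive array was above every CD31+ array, by as little as 0.11 between arrays numbered 1. The difference of 0.42 had a 95% interval of -0.23 to 1.06 (limma test, adjusted p = 0.659) and was 0.17 without double-positive replicate 3, the array with the highest value. The other probe set of Angpt1 lay within 0.1 of the floor on all 6 arrays.

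Of the receptors, Tek read 7.73, 7.49 and 7.62 on the double-positive arrays and 7.43, 7.51 and 7.21 on the CD31+ arrays, so the groups overlapped. Its means of 7.61 ± 0.121 and 7.38 ± 0.155 (SD, n = 3 each) differed by 0.23, with a 95% interval of -0.06 to 0.52 (limma test, adjusted p = 0.659). This interval, from the fit over all probe sets, holds changes up to 0.52 on the scale as deposited. With the filter on dim probe sets the interval was wider, at -0.37 to 0.84. Neither interval shows that the groups are equal.

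Tie1, the partner receptor, had 1 probe set, which read 2.39, 2.64 and 2.60 on the double-positive arrays and 2.59, 2.61 and 2.59 on the CD31+ arrays. The difference of -0.05 had a 95% interval of -0.25 to 0.14 (limma test, adjusted p = 0.757). Values this close to the floor cannot show a difference, and the probe set of Pecam1 was equally dim in cells sorted on CD31 protein, so a low reading of this kind was not taken as absence of the transcript.

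Ptprb, whose product dephosphorylates TIE2, read 9.19, 9.49 and 9.55 on the double-positive arrays and 9.73, 9.64 and 9.33 on the CD31+ arrays. The difference was -0.16, with a 95% interval of -0.58 to 0.27 (limma test, adjusted p = 0.66). A further probe set of the gene read 8.38, 7.97 and 8.07 against 8.21, 8.73 and 8.33, a difference of -0.28 (limma test, adjusted p = 0.659). The groups overlapped at both. The last probe set of Ptprb was within 0.1 of the floor on all arrays.

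Angptl4 was measured at 2 probe sets, both with the higher mean in the double-positive arrays. The brighter one, whose name ending marks probes that can match more than 1 transcript, read 7.10, 6.15 and 6.34 on the double-positive arrays and 4.77, 5.48 and 4.08 on the CD31+ arrays. Its difference was 1.76 with a 95% interval of 0.47 to 3.04, or 3.38-fold (limma SE 0.479, adjusted p = 0.337). The dimmer one read 5.65, 5.33 and 4.75 against 2.64, 2.95 and 2.45, a difference of 2.56 with a 95% interval of 1.78 to 3.34 (limma SE 0.289, adjusted p = 0.0639). At neither did the groups overlap. With the filter on dim probe sets the brighter one passed as higher (limma test, adjusted p = 0.0135), and without double-positive replicate 1 it did not (limma test, adjusted p = 0.0691). It entered the filter through all double-positive arrays and 1 CD31+ array. The dimmer one did not enter it, since it reached a log2 value of 5 on double-positive arrays 1 and 2 alone.

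**Figure D2:**
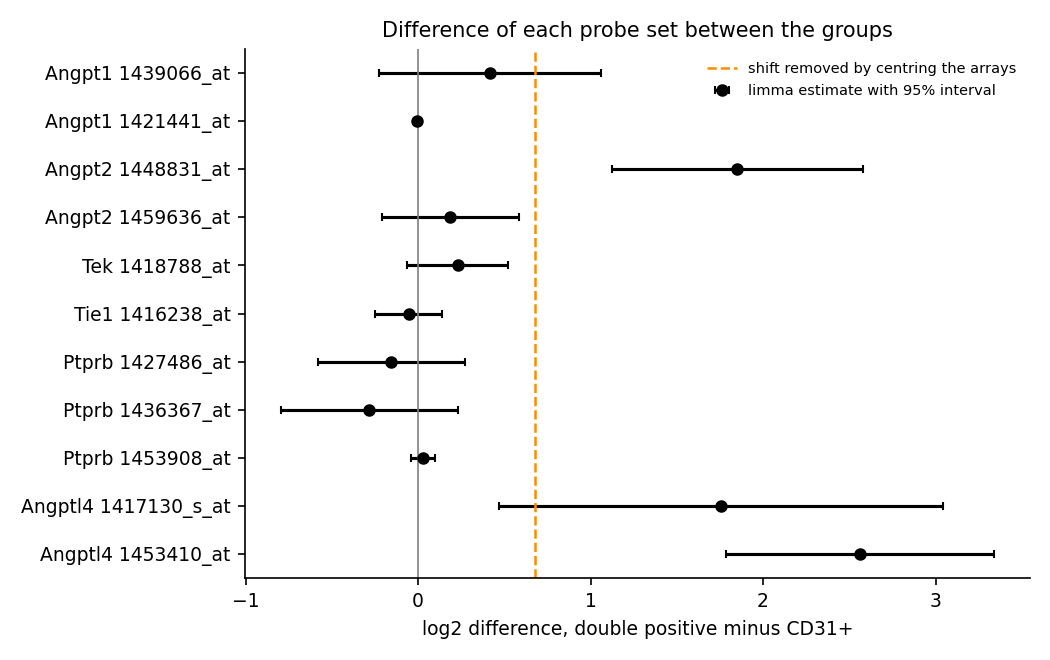
Difference of each probe set between the groups (horizontal axis, log2, double positive minus CD31+) with its 95% interval from limma, over all probe sets. The dashed line marks 0.68, by which every difference falls when the arrays are centred. The intervals of Angpt2 at its brighter probe set and of the dimmer Angptl4 probe set lie to the right of that line. Those of the brighter probe sets of Angpt1 and Angptl4 cross it, and all others, also that of Tek, lie to the left of it.

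In all, limma called 0 of the 6 measured genes higher and 0 lower at 5% FDR over all probe sets, against 1.06% of 18193 genes called higher and 0.225% called lower. Before adjustment 2 of them, Angpt2 and Angptl4, had a p under 0.05 as higher and 0 as lower, where 14.4% of all genes did as higher and 2.44% as lower, and limma with a trend and robust variances also called 0 and 0. With the filter on dim probe sets, which 4 of the genes entered, Angpt2 and Angptl4 passed as higher and none as lower, where 36.0% of the 4213 genes tested were called higher and 4.34% lower. Angpt2 could enter the filter only by being high in the double-positive arrays, and Angptl4 also depended on these arrays to enter it. The filtered values of both genes, also those that follow, are therefore no independent support for their direction. The replicate numbers pair the arrays, and a fit with a replicate block gave the same calls (filtered limma test, adjusted p = 0.000398 for Angpt2 and 0.0025 for Angptl4). Leaving out both arrays numbered 2, on which the control probe set for B1 repeats read 12.3 and 12.8 against 7.47 to 8.11 on the others, Angpt2 differed by 1.85 and Angptl4 by 2.30, and with the filter both passed.

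The double-positive arrays were brighter as a whole, and the genes are best read against that. A log2 value of 5 was reached by 13.8% to 14.7% of probe sets on the double-positive and by 10.7% to 12.6% on the CD31+ arrays. Over the 3984 genes whose brightest probe set averages at least 5, the median difference was 0.73, and in 46.9% of them every double-positive array lay above every CD31+ array, as for Angpt2 and Angptl4. Of these genes 91.8% had a smaller difference than Angpt2, 90.2% a smaller one than Angptl4, 24.8% a smaller one than Tek and 11.6% a smaller one than Ptprb.

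**Figure D3:**
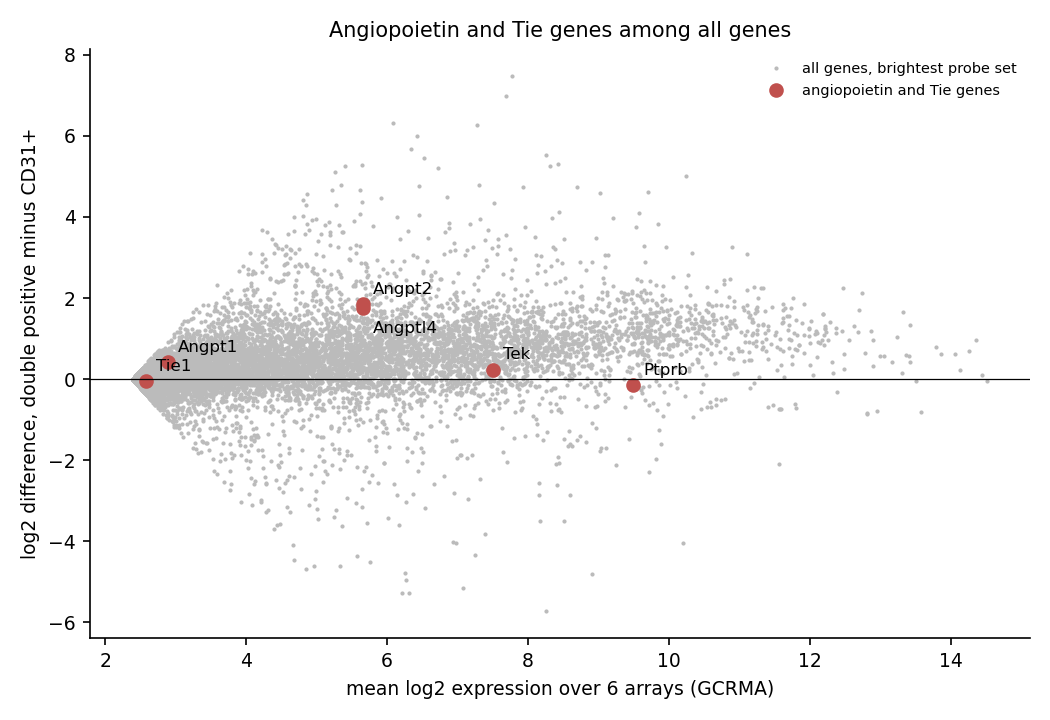
Difference between the groups (vertical axis, log2, double positive minus CD31+) against mean log2 expression over the 6 arrays (horizontal axis) for 18193 genes, each at its brightest probe set. Grey points are all genes and red points the 6 measured angiopoietin and Tie genes. Angpt2 and Angptl4 lie above most genes with a mean of at least 5, while Tek and Ptprb lie below most of them.

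Centring each array on the median of its bright probe sets lowers every difference by 0.68. On that scale Angpt2 differed by 1.17 (filtered limma test, adjusted p = 0.0111) and Angptl4 by 1.08 (filtered limma test, adjusted p = 0.0398). Angpt1 then differed by -0.26 and Tek by -0.45, with a 95% interval of -1.0 to 0.11 (filtered limma test, adjusted p = 0.237), so the sign of both depends on the scaling. Ptprb differed by -0.83 at its brightest probe set (filtered limma test, adjusted p = 0.0534, and 0.0240 with the replicate block, where it passed as lower) and passed as lower at its other bright probe set, by -0.96 (filtered limma test, adjusted p = 0.0298). With the filter and centred arrays 13.9% of genes were called higher and 10.3% lower.

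Differences between bright genes within an array do not depend on how that array was centred. Ptprb minus Tek was 1.46, 2.00 and 1.93 on the double-positive arrays and 2.30, 2.13 and 2.12 on the CD31+ arrays. All 3 double-positive values were below all 3 CD31+ values, by 0.39 on average, with a 2-sided exact permutation p of 0.1, the smallest that 3 arrays against 3 allow, and of 0.15 adjusted over the 3 pairs of genes. The other pairs, Angpt2 with Angpt1 and Tek with Tie1, have a partner near the floor, which does not follow the brightness of the array, and their differences are not given.

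The angiopoietin system acts through further ligands, adaptors, transcription factors and partners, and 48 such genes listed for the purpose were measured. Of these, limma called 2 higher and 1 lower in the double-positive arrays over all probe sets, where 1.06% and 0.225% of all genes were called. Before adjustment 15 higher and 3 lower had a p under 0.05. The filter on dim probe sets, which 23 of them entered, left 11 higher and 2 lower, and centring the arrays as well left 5 and 3. Over all genes in the filter the shares were 36.0% and 4.34%, and 13.9% and 10.3% on centred arrays, and before adjustment 14.4% and 2.44% of the 18193 genes had a p under 0.05. The median difference of the 48 genes was 0.19, against 0.000098 over all genes, most of which are dim, and 0.73 over those that average at least 5. A replicate block without the filter gave 0 calls, and with the filter 11 higher and 2 lower.

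The other ligands of the family were dim. Angpt4 and Angptl8 lay within 0.1 of the floor on every array, and Angptl1, Angptl6 and Angptl7 averaged at most 3.65 in either group. Svep1, a matrix protein known to take part in TIE signalling of lymphatic vessels, read 2.74, 2.82 and 2.47 in the double-positive and 3.26, 3.35 and 2.88 in the CD31+ arrays, a difference of -0.49 (limma test, adjusted p = 0.52). Of the 6 measured genes of this kind limma called 0 in either direction, while 0 were higher and 1 lower at p under 0.05 before adjustment. The shares over all genes at that p were 14.4% higher and 2.44% lower.

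Adaptors and kinases downstream of TIE2 showed no call over all probe sets among 15 measured, while 3 were higher and 0 lower at p under 0.05 before adjustment. At that p 14.4% of all genes were higher and 2.44% lower. Rasa1, a RAS GTPase-activating protein, differed by 1.21 (limma test, adjusted p = 0.0806), from 6.65 to 7.86, and by 0.32 with overlapping groups at another probe set (filtered limma test, adjusted p = 0.487). Ptpn11, which encodes the phosphatase SHP2, differed by 1.05 (limma test, adjusted p = 0.491), from 7.65 to 8.70. At its brightest probe set each passed as higher with the filter, and neither did with the filter and centred arrays, at adjusted p-values of 0.222 and 0.427 from limma. There a dimmer probe set of Grb2, an adaptor that binds phosphorylated TIE2, passed as lower, by -0.86 (limma test, adjusted p = 0.0445). The brightest probe set of Grb2 differed there by -0.77 and did not pass (limma test, adjusted p = 0.158), except with the replicate block (adjusted p = 0.0354). Bmx, an endothelial tyrosine kinase, read 5.11, 4.21 and 4.78 in the double-positive and 3.82, 2.43 and 2.39 in the CD31+ arrays, a difference of 1.82 (limma test, adjusted p = 0.359).

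The calls over all probe sets came from the transcription factors and targets, of which 11 were measured. Over all genes 1.06% were called higher and 0.225% lower. Ccn1, which encodes a matricellular protein, rose from 8.33 to 11.6, a difference of 3.26 (limma SE 0.164, adjusted p = 0.0169). Vcam1, an adhesion molecule for leukocytes, rose from 7.30 to 10.2, a difference of 2.89 (limma SE 0.165, adjusted p = 0.0217). Esm1, which encodes endocan, a product of sprouting blood endothelium, read 2.62, 2.57 and 2.72 in the double-positive and 5.92, 5.38 and 6.47 in the CD31+ arrays. It was lower by -3.28 (limma SE 0.304, adjusted p = 0.0476), and the double-positive values were near the floor. All 3 calls held in the filter, centred or not, and none with the replicate block over all probe sets. Esm1 entered the filter through the CD31+ arrays alone. Dimmer probe sets of Vcam1 differed by 0.25 and 0.46, and those of Ccn1 by 1.16 to 3.12.

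Foxc2, a transcription factor of lymphatic valves, read 7.34, 6.56 and 6.89 in the double-positive and 3.48, 3.28 and 4.27 in the CD31+ arrays. Its difference of 3.26 just missed the test over all probe sets (limma test, adjusted p = 0.0623) and passed with the filter, which it entered through the double-positive arrays alone, also on centred arrays. Foxo1, the forkhead factor that TIE2 signalling restrains and that drives Angpt2 transcription, had means of 8.83 and 8.16. It differed by 0.67 (limma test, adjusted p = 0.526), and by -0.01 with centred arrays. Foxo3 and Klf2, the latter a factor induced by flow, differed by 0.99 and 1.43, and both passed with the filter. On centred arrays Foxo3 did not pass, and Klf2 passed with the replicate block (filtered limma test, adjusted p = 0.0397) and not without it (adjusted p = 0.0615).

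Among partners and sheddases of the receptors, 8 were measured and limma called 0 of them over all probe sets, while 4 were higher and 0 lower at p under 0.05 before adjustment. At that p 14.4% of all genes were higher and 2.44% lower. Itgav, which encodes integrin alpha v, read 9.73, 9.41 and 9.18 in the double-positive and 6.95, 7.53 and 6.00 in the CD31+ arrays. The difference of 2.61 (limma test, adjusted p = 0.148) passed with the filter, centred or not. Its partner gene Itgb3 had 4.55 against 2.76 and did not enter the filter (limma test, adjusted p = 0.131). Mmp14, a membrane-bound protease, differed by 1.46 (limma test, adjusted p = 0.107) and passed with the filter. On centred arrays it passed with the replicate block (filtered limma test, adjusted p = 0.0347) and not without it (adjusted p = 0.117). Cdh5, whose product VE-cadherin is a substrate of VE-PTP, had means of 5.62 and 5.70.

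The partners of ANGPTL4 differed in both directions, and limma called 0 of the 8 measured over all probe sets, while 2 were higher and 1 lower at p under 0.05 before adjustment. The shares over all genes at that p were 14.4% higher and 2.44% lower. Pparg, a nuclear receptor that induces Angptl4, read 7.81, 7.29 and 6.53 in the double-positive and 4.96, 5.20 and 4.69 in the CD31+ arrays. Gpihbp1, which carries lipoprotein lipase to the surface of capillaries, read 3.01, 3.05 and 2.95 against 5.12, 6.51 and 5.09. Neither gene had overlapping groups. Pparg differed by 2.26 (limma test, adjusted p = 0.141) and Gpihbp1 by -2.57 (limma test, adjusted p = 0.149), and both passed with the filter, centred or not. Gpihbp1 entered the filter through the CD31+ arrays alone, and Pparg through all double-positive arrays and 1 CD31+ array. Lpl, which encodes the lipase itself, had means of 7.31 and 6.95 with overlapping groups and differed by 0.36, with a 95% interval of -1.07 to 1.79. Vegfa and Hif1a, genes of the response to low oxygen, as Angptl4 also is, differed by 1.38 and 0.63. Vegfa passed with the filter alone, which it entered through the double-positive arrays. Hif1a had overlapping groups and did not pass (filtered limma test, adjusted p = 0.155). On centred arrays Hif1a differed by -0.05, and another bright probe set of it differed by -0.04 as deposited.

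**Figure D4:**
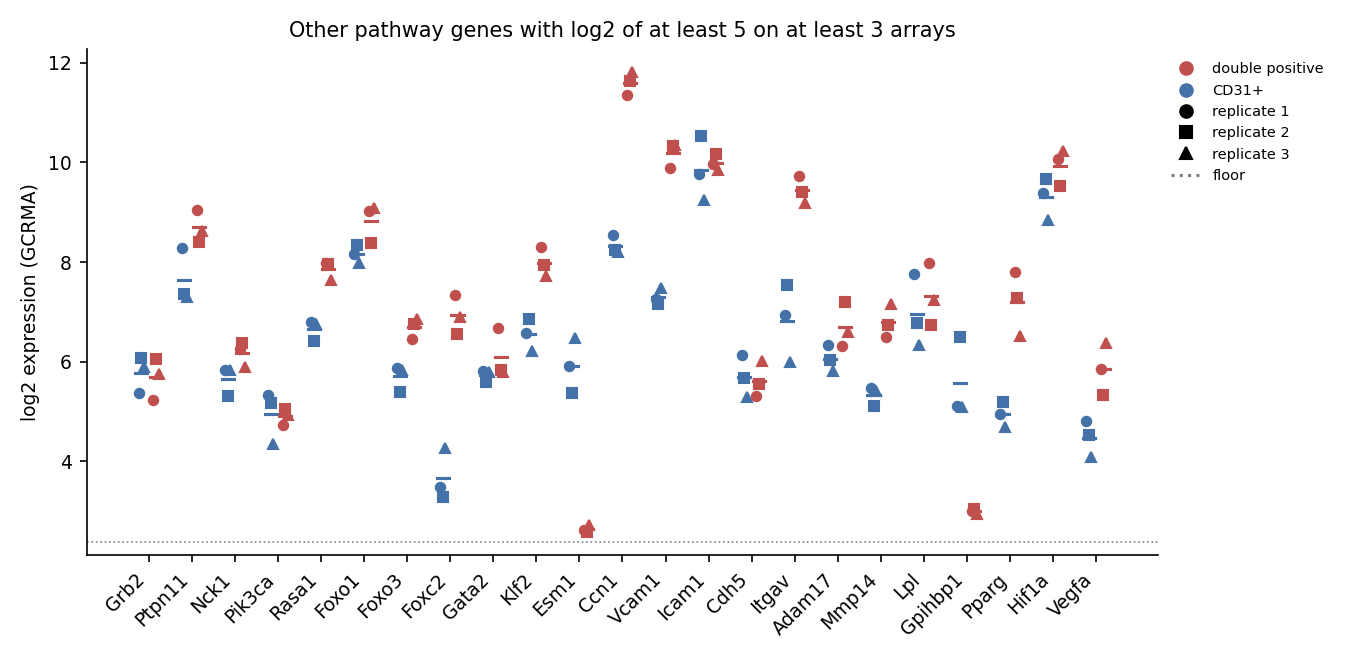
Log2 expression (GCRMA, vertical axis) of the 23 other pathway genes with a log2 value of at least 5 on at least 3 arrays, each at its brightest probe set. Each point is 1 array, with shapes for replicate numbers, and bars are means of 3 arrays. Foxc2, Ccn1, Vcam1, Itgav and Pparg lie higher in the double-positive arrays, Esm1 and Gpihbp1 in the CD31+ arrays, and Cdh5, Icam1 and Lpl overlap.

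Angpt1 is a gene of mural and reticular cells in many tissues, and markers of these cells were not evenly spread over the arrays. Pdgfrb, the receptor of pericytes, read 4.14, 4.78 and 2.99 in the double-positive and 7.06, 8.50 and 5.12 in the CD31+ arrays, and Acta2, the actin of smooth muscle, 4.27, 4.17 and 3.49 against 6.34, 7.43 and 5.17. The other mural markers in the filter did not go this way. Kcnj8 averaged 5.92 in the double-positive and 4.54 in the CD31+ arrays, without overlap, and Rgs5 averaged 7.45 and 7.12, with overlap. Outside the filter, Notch3 averaged 3.09 in the double-positive and 4.72 in the CD31+ arrays and Abcc9 2.98 and 4.57, both with overlap. Tagln averaged 2.84 and 3.19, without overlap, while Cspg4 and Myh11 averaged at most 2.71 in either group. Angpt1 read at most 2.74 on the CD31+ arrays, where Pdgfrb and Acta2 were highest. Values this close to the floor cannot show presence or absence of the transcript, and a mural source of Angpt1 was not tested. Of 10 measured mural markers limma called 0 higher and 0 lower over all probe sets, against 0 and 2 at p under 0.05 before adjustment and 0 and 2 in the filter, Pdgfrb and Acta2, which entered it through the CD31+ arrays alone. Their summed linear values (2 to the power of the log2 value) were 316 to 324 in the double-positive and 193 to 953 in the CD31+ arrays, and Des lay at the floor on all arrays. Of 10 reticular cell markers 2 were called higher, Postn and Thy1, and 0 lower, with 3 and 3 of 7 in the filter. Over all genes 1.06% were called higher and 0.225% lower, and in the filter 36.0% and 4.34%. Before adjustment 14.4% and 2.44% of all genes had a p under 0.05. Thy1 and Il7 entered the filter through the double-positive arrays alone and Col1a2 through the CD31+ arrays alone. The sums of the reticular markers were 2221 to 3803 and 330 to 785, carried by Postn in the double-positive arrays, with Lum and Col1a1 at the floor there. The part of these cells in the differences of Angpt2 and Angptl4 was not tested.

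**Figure D5:**
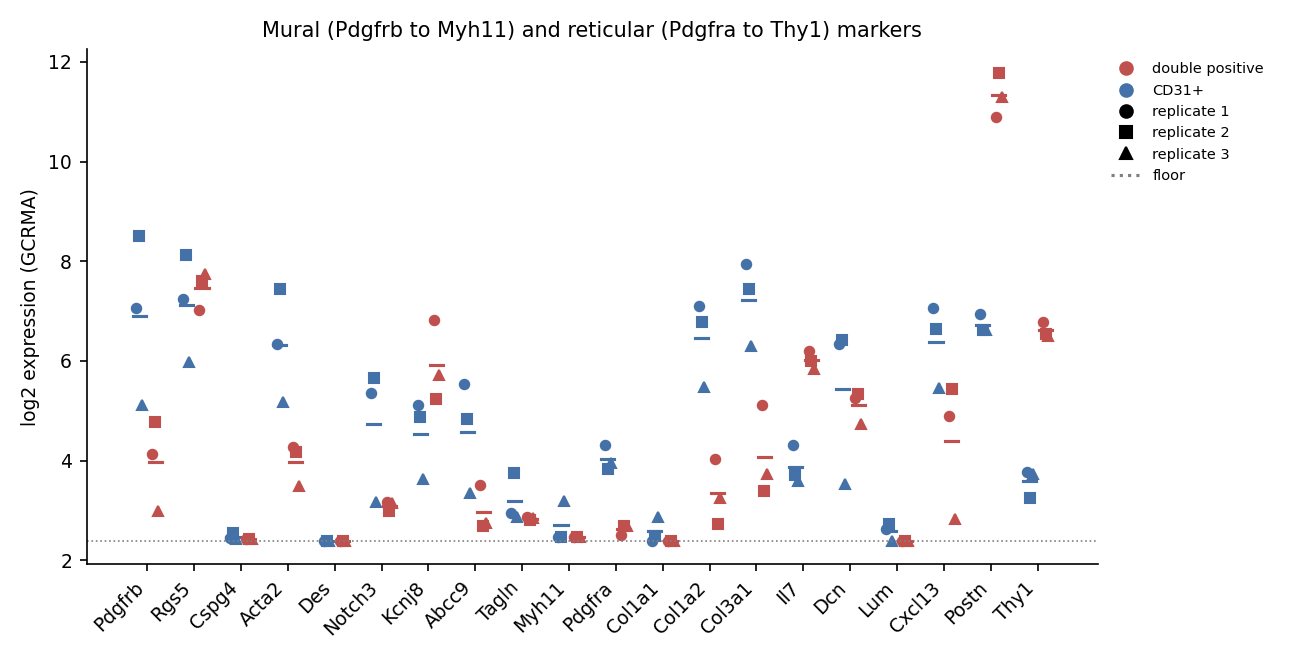
Log2 expression (GCRMA, vertical axis) of 10 mural and 10 reticular cell markers on each of the 6 arrays, each at its brightest probe set. Each point is 1 array, with shapes for replicate numbers, and bars are means of 3 arrays. Pdgfrb, Acta2, Col1a2 and Col3a1 lie higher in the CD31+ arrays, and Postn, Thy1, Il7 and the mural marker Kcnj8 in the double-positive arrays.

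Cell types outside the vessel wall can also make these proteins, Angptl4 in adipocytes and Angpt1 in megakaryocytes and platelets. Of 5 measured adipocyte markers, Adipoq averaged 2.41 and 2.44, Lep and Retn lay within 0.1 of the floor on all arrays, and Fabp4, which endothelial cells also express, averaged 10.99 and 10.87. The sums of the list, 1860 to 2210 in the double-positive and 1777 to 2105 in the CD31+ arrays, are nearly all Fabp4 and say nothing of adipocytes. Of 6 platelet markers, Ppbp, Gp9, Gp6 and Gp1bb averaged at most 2.46 in either group, while Pf4 had 8.50 and 7.67 and Itga2b 5.06 and 3.26, with sums of 344 to 581 and 118 to 351. Of 9 hematopoietic markers Cd79a lay at the floor on every array and Ptprc, which encodes CD45, averaged 2.67 and 3.72, with sums of 54.5 to 56.0 and 56.0 to 75.8. Limma called 0 genes of these 3 lists in either direction. Itga2b alone had a p under 0.05 before adjustment, as higher, where 14.4% of all genes did as higher and 2.44% as lower.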

How the data were processed

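RNA of cells sorted from LN (20 ng per sample, 2 rounds of linear amplification, biotin label) was hybridized to Affymetrix whole-genome mouse expression arrays, 3 per group. The authors normalized the arrays with GCRMA in Bioconductor, and the deposited values are relative log2 abundances, 1 per probe set and array. Versions of GCRMA and limma used upstream are not given in the sources used here, and raw intensities were not used. The platform table names 1 gene for 34945 probe sets, and the gene IDs of 34741 of them matched a RefSeq table for current symbols.

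Differential expression was tested here with limma 3.58.1 in R 4.3.3 (lmFit, eBayes, residual degrees of freedom 4) on all 45037 probe sets, at 5% FDR, as in the study's methods, with Benjamini-Hochberg adjustment. Prior degrees of freedom were 0.356 over all probe sets and 4.92 over the 6088 in the filter. A single passing probe set sufficed for a gene to be called, and genes are shown at their brightest probe set. Every angiopoietin and Tie gene was named at every probe set. Of the listed pathway genes, those called and up to 3 per sublist with the smallest p were named by rule, and others (Foxo1, Lpl, Cdh5, Icam1, Hif1a, Grb2, Angpt4, Angptl6 and Angptl8) were named after their values were seen. The members and lists were chosen with earlier results of these data known. Scripts were tested on simulated data. Plots were made in Python 3.11.15 (matplotlib 3.10.9).

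The replicate numbers were taken to pair the arrays: in the 5764 probe sets averaging 5 or more, deviations from the group mean had a correlation of 0.341, 0.475 and 0.418 for the arrays sharing a number and of -0.405 to 0.0566 for the others, and the series describes paired samples. The sources used here do not say which mice made up each sample, and p-values measure the spread between these samples, which the labels call biological replicates. Alternatives were the block, each array or both arrays numbered 2 left out, the filter, centring, eBayes with trend and robust, probe sets averaged or reduced to 1 per gene, and a minimum difference of 1. Of the listed pathway genes, 2 are not reported here.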

Additional observations from a re-analysis of the deposited data

How the results depend on the processing

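Over all probe sets limma called 0 of the 6 genes higher and 0 lower, and these counts did not move with the replicate block, trend and robust variances, 1 probe set per gene, a minimum difference of 1, or with any 1 array or both arrays numbered 2 left out. Called higher were 2 with the filter on dim probe sets, with the filter and the block, with centred arrays, with centring plus the filter, and with these and the block, and 1 with probe sets averaged per gene. With the filter and 1 array left out there were 2, or 1 without double-positive replicate 1, and 2 without both arrays numbered 2, settings that, like the filter with centring and the block, were chosen after seeing the data. Called lower were 3 with centred arrays, a setting that moves probe sets at the floor down by construction, and 1 with the filter and centred arrays, also with the block.

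The pathway genes, 2 higher and 1 lower, became 0 and 0 with the block or without both arrays numbered 2, 11 and 2 with the filter, also with the block, 12 and 41 with centred arrays, 5 and 3 with centring plus the filter, and 7 and 3 with these and the block. With 1 probe set per gene 4 were higher. Leaving out any 1 array gave 0 to 1 higher and 0 to 1 lower.

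Signs turned for Angpt1, to -0.26 with centred arrays and -0.01 at its other probe set, for Tek, to -0.45 with centred arrays, with or without the filter and the block, for Ptprb, to 0.03 at its probe set at the floor, and for Tie1, which ran from -0.10 to 0.02 with 1 array left out. At their brightest probe sets the differences of Angpt2 and Angptl4 kept their sign in every setting run. The dim probe set of Angpt2 turned from 0.19 to -0.49 with centred arrays. Precision is limited by 3 arrays a group, and probe sets near the floor cannot show a difference.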

Other observations

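The genes whose pattern over the 6 arrays was most like that of each bright angiopoietin or Tie gene were found by Pearson correlation among 3980 other genes with a mean of at least 5. The 6 points are 3 arrays of each group, so a difference between the groups enters every value, and the correlations are given as a description of these arrays. Nearest to Angpt2 were Dhx30, Aga and Rpa3, at r of 0.998, 0.998 and 0.997. Nearest to Angptl4 were Fnta, Pea15a and Syap1, at 0.996 each. Nearest to Tek were Dag1, Brk1 and Smarcd2, at 0.997, 0.995 and 0.994. Nearest to Ptprb, whose groups overlap as those of Tek do, were Ppp1r13b, Fam117a and Sik3, at 0.984, 0.974 and 0.941.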
